A study of Homo sapiens with 6 samples.

Results

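The genes described here are the numbered zinc finger genes of human chromosome 19, 243 symbols written as ZNF plus digits. They were chosen by name and by position alone, out of 55719 gene symbols in the tables. A further 240 symbols of the same form lie on other chromosomes. The 243 genes were placed in the order of their starts on hg19, and a new cluster was begun where neighbouring starts lay more than 1 Mb apart, which gave 17 clusters.

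Messenger RNA was sequenced from 2 cultured human lines of an immortalized lymphoma B cell, LY19WT and LY19Y646F, with 3 libraries each. LY19WT is labelled as wild type for EZH2, and LY19Y646F as expressing EZH2-Y646F constitutively from a CMV promoter. All 6 libraries came from untreated cells of passages 10 to 15, and no other allele or agent is given in the labels. The enzyme EZH2 is the part of Polycomb repressive complex 2 that methylates lysine 27 of histone H3, a mark of silenced genes. Each group is a single line. The labels call its libraries biological replicates but do not say whether they came from separate cultures or whether the line is 1 clone. The p-values therefore measure only the spread between these libraries, which may be technical, and the mutant allele cannot be told apart from other differences between the lines. In bulk RNA, fewer cells expressing a gene and less RNA per cell cannot be told apart either.

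Most numbered zinc finger genes of chromosome 19 encode C2H2 proteins, in which an array of fingers reads DNA, often behind a KRAB domain that recruits the co-repressor TRIM28 and, through it, the histone H3 lysine 9 methyltransferase SETDB1. Many of these proteins bind transposable elements. The genes arose by repeated tandem duplication, so neighbours are similar in sequence and stand close together, and the promoters of many are rich in CpG.

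The labelled line was checked first. EZH2 was at 60.6, 76.5 and 74.7 FPKM (fragments scaled to transcript length and to the mapped total) in LY19WT and at 70.2, 80.4 and 93.5 FPKM in LY19Y646F, values that count both alleles together and do not check the mutation. Of 9 B lineage markers, MS4A1 was under 1 FPKM in every LY19WT library (0.0688, 0.0880 and 0.140) and at 83.1, 110 and 118 FPKM in LY19Y646F. The other 8 markers were above 1 FPKM in every library, apart from BLNK, which was listed at 0 in 1 LY19WT library, but their levels differed in both directions. EBF1 was at 44.6, 43.4 and 42.5 FPKM in LY19WT and at 5.61, 5.11 and 4.89 FPKM in LY19Y646F, and PAX5 was likewise higher in LY19WT, at 118, 94.9 and 85.7 FPKM against 35.2, 23.96 and 22.3 FPKM. PTPRC was lower in LY19WT, at 3.21, 4.17 and 4.36 FPKM against 70.6, 87.9 and 92.6 FPKM. The summed level of the 9 was 425 to 616 FPKM in LY19WT and 710 to 1042 FPKM in LY19Y646F. Summed T cell markers stayed at or below 1.64 FPKM, epithelial markers at or below 0.294 FPKM and fibroblast markers at or below 0.808 FPKM in every library. Summed myeloid markers reached 11.4 to 13.9 FPKM in LY19WT, where 5 of the 6 were under 1 FPKM and LYZ was not, against 0.377 to 0.736 FPKM in LY19Y646F. The depth of the libraries is unknown, since the tables give no counts.

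How the rows of the tables were built bears on every value below. Each library has its own assembled gene loci, and 178 of the 243 genes sat in a row shared with another gene in at least 1 library, 90 of them in all 6 libraries. Such a row has 1 FPKM value for all the genes it names, and the value is then not that of any single gene. The other 65 genes were alone in their row in every library. Genes averaging 0.5 FPKM or more over the 6 libraries were tested with limma on log2(FPKM + 1), and a gene was called at an adjusted p under 0.05. Of the 243 genes, 194 were tested and 49 were not, 16 of them listed at 0 in every library. Among the tested genes 158 reached the minimum in both lines, 23 only through LY19WT and 13 only through LY19Y646F. The 194 tested genes had 150 distinct sets of values. Of the genes called below, 12 reached the minimum through a single line, ZNF175, ZNF558, ZNF599, ZNF358, ZNF442 and ZNF788 through LY19WT and ZNF77, ZNF404, ZNF350, ZNF534, ZNF610 and ZNF880 through LY19Y646F. A gene that is tested only because it is high in 1 line had to differ, so counts of calls over the tested genes lean towards differences.

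Across all tested symbols 26.1% were called (4515 of 17276), 13.2% higher in LY19Y646F and 12.9% lower. Of the tested chromosome 19 ZNF genes 26 of 194 were called (13.4%), 16 higher and 10 lower. Their median difference was 0.10 on the log2(FPKM + 1) scale, against 0.00 over all tested symbols. It was -0.29 over the 33 tested genes alone in their row, 0.023 without LY19WT replicate 2, 0.027 without LY19Y646F replicate 2, 0.058 without LY19WT replicate 3 and 0.16 without replicate 1 of both lines, so its direction is not that of the genes with single values. Among the genes alone in their row, 11 of 33 were called (33.3%), 5 higher and 6 lower, near the background of all tested symbols alone in their row, which was 29.3% in both directions, 14.5% higher and 14.7% lower. Among the genes that shared a row, 15 of 161 were called (9.32%), 11 higher and 4 lower, against 22.3% of all such symbols, 11.6% higher and 10.7% lower. The ZNF genes of other chromosomes were called at 25.9% (50 of 193), and the other genes of chromosome 19 at 15.6% (164 of 1054). The libraries of the lines did not overlap in 54 of the 194 genes (33 higher, 21 lower), or 27.8%, against 44.7% of all tested symbols. No test was made of these differences between shares.

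The promoters of a few called genes with a row of their own are shown first, 2 of the lower and 2 of the higher genes. ZNF175 and ZNF558 had the largest falls among the genes with a row of their own. The 250 bases before the start of ZNF175, ZNF558, ZNF331 and ZNF329 are from RefSeq on GRCh38.p14, a later build than that of the tables, and the 4 were chosen after their values were seen. Capitals mark CCGGAAG, a core of the sites bound by ETS factors, searched on both strands. ZNF175 lies at chr19:51571033-51571282 on the plus strand, ZNF558 at chr19:8832305-8832554 on the minus strand, ZNF331 at chr19:53520764-53521013 on the plus strand and ZNF329 at chr19:58150790-58151039 on the minus strand.
ZNF175: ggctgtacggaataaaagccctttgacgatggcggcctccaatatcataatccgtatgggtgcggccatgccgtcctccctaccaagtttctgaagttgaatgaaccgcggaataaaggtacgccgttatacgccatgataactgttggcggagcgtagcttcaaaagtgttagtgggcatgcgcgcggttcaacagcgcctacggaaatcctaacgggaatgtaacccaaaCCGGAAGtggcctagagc
ZNF558: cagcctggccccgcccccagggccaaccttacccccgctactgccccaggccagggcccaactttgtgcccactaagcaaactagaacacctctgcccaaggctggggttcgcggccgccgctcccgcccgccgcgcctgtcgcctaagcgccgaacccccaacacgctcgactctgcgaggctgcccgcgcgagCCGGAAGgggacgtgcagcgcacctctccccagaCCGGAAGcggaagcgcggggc
ZNF331: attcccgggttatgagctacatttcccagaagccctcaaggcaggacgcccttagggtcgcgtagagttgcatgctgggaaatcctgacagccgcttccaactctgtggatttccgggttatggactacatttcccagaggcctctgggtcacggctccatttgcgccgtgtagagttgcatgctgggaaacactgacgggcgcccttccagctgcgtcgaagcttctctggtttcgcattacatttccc
ZNF329: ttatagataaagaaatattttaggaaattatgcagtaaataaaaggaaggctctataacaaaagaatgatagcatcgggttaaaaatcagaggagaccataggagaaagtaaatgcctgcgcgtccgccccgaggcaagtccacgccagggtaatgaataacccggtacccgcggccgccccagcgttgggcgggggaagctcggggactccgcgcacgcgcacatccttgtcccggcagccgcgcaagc
The promoter of ZNF175 holds CCGGAAG 1 time and that of ZNF558 holds it 2 times, near the start in both, while the windows of ZNF331 and ZNF329 do not hold these letters.

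A promoter was found for 208 of the 243 genes, matched by symbol. CCGGAAG was in 65 of them (31.2%), against 8.82% of the 27305 promoters of the table in windows of the same length. TATAAA, the core of a TATA box, was in 4 (1.92%), against 11.1% of all. The ratio of observed to expected CpG had a median of 0.74, against 0.56 over all promoters, and among the 4 promoters shown it was highest in ZNF175 at 1.17. By call, CCGGAAG was in 3 of the 8 promoters of genes lower in LY19Y646F, in 1 of the 15 of genes higher and in 50 of the 147 of genes tested and not called. Among genes alone in their row it was in 2 of 5 lower and 0 of 5 higher. These counts are small and are given as a description.

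Genes that were lower in LY19Y646F and alone in their row in every library numbered 6. ZNF175, a KRAB zinc finger protein described as a repressor of HIV transcription, was at 3.76, 5.39 and 4.99 FPKM in LY19WT and at 0.00481, 0.0434 and 0 FPKM in LY19Y646F. The LY19Y646F libraries were all near 0, and the difference was -2.48 on the log2(FPKM + 1) scale (SE 0.18, adjusted p = 0.000563). ZNF558, a KRAB gene reported to repress the mitochondrial gene SPATA18, was at 2.19, 2.53 and 3.01 FPKM in LY19WT. It was at 0.0105 FPKM in 1 LY19Y646F library and listed at 0 in the other two, a difference of -1.83 (SE 0.16, adjusted p = 0.00104). No other row above 0.5 FPKM lay over the place of ZNF175 or ZNF558 in the libraries where they were listed at 0. In the authors' deposited table the lines had 7.45 and 0.0179 FPKM for ZNF175 and 3.20 and 0.00381 FPKM for ZNF558 (LY19WT, then LY19Y646F).

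ZNF333 was at 6.07, 6.004 and 5.14 FPKM in LY19WT and at 1.31, 2.06 and 1.74 FPKM in LY19Y646F. It stands alone on the chromosome, as the single member of its cluster, and fell by 1.32 on the log2(FPKM + 1) scale (SE 0.18, adjusted p = 0.00545). ZNF599 was low in both lines, at 1.13, 1.10 and 1.32 FPKM in LY19WT and at 0.207, 0.108 and 0.0864 FPKM in LY19Y646F. The groups did not overlap, and the difference was -0.95 (SE 0.14, adjusted p = 0.00682).

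ZNF146, which is made almost wholly of zinc fingers without a KRAB domain and binds LINE-1 elements, had the highest level of all the genes with a row of their own. It was at 87.8, 82.9 and 84.3 FPKM in LY19WT and at 50.7, 64.6 and 64.4 FPKM in LY19Y646F. The difference was modest, -0.51 (SE 0.13, adjusted p = 0.0397), and the call was lost without any of LY19WT replicates 1, 2 and 3 or LY19Y646F replicates 2 and 3, where the adjusted p was 0.103, 0.108, 0.109, 0.0727 and 0.0695. ZNF114 was at 3.76, 4.88 and 4.57 FPKM in LY19WT and at 0.727, 1.73 and 2.19 FPKM in LY19Y646F, a difference of -1.13 (SE 0.28, adjusted p = 0.0404). That call was lost without LY19WT replicate 1, 2 or 3 or LY19Y646F replicate 2 (adjusted p = 0.0765, 0.125, 0.117 and 0.0930), and with quantile scaling (adjusted p = 0.101), a pseudocount of 0.1 (adjusted p = 0.0562) or no filter (adjusted p = 0.0825). All 3 LY19Y646F libraries of both genes remained below all 3 of LY19WT.

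The 5 genes higher in LY19Y646F with a row of their own were ZNF331, ZNF77, ZNF329, ZNF416 and ZNF101. ZNF331, a KRAB gene whose promoter is known to be methylated in several tumours, was at 3.85, 3.21 and 3.49 FPKM in LY19WT and at 8.99, 8.43 and 9.03 FPKM in LY19Y646F. Both lines were tight, and the difference was 1.12 on the log2(FPKM + 1) scale (SE 0.14, adjusted p = 0.00403). ZNF77 was near 0 in LY19WT, at 0.0501, 0.0273 and 0.0565 FPKM, and at 0.810, 1.11 and 1.05 FPKM in LY19Y646F (difference 0.93, adjusted p = 0.00727). The authors' deposited table gave it 0.628 FPKM in LY19WT and 1.29 FPKM in LY19Y646F, a smaller difference.

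ZNF329 was at 1.72, 1.996 and 1.95 FPKM in LY19WT and at 3.94, 4.79 and 5.44 FPKM in LY19Y646F. The lines were well apart (difference 0.98, adjusted p = 0.0126), and the adjusted p was 0.0501 without LY19Y646F replicate 2. ZNF416 was at 0.937, 1.52 and 1.74 FPKM in LY19WT and at 3.56, 5.56 and 5.603 FPKM in LY19Y646F. It rose by 1.30 (SE 0.25, adjusted p = 0.0163), a call lost without LY19WT replicate 2 or LY19Y646F replicate 2 or 3 (adjusted p = 0.0551, 0.0605 and 0.0574). ZNF101 was at 12.4, 6.37 and 14.1 FPKM in LY19WT and at 25.1, 26.7 and 28.4 FPKM in LY19Y646F. LY19WT replicate 2 was the low library, and the difference was 1.28 (SE 0.30, adjusted p = 0.0332). The call on ZNF101 was lost without LY19WT replicate 1 or LY19Y646F replicate 1, 2 or 3 (adjusted p = 0.0638, 0.0661, 0.0996 and 0.102).

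**Figure D1:**
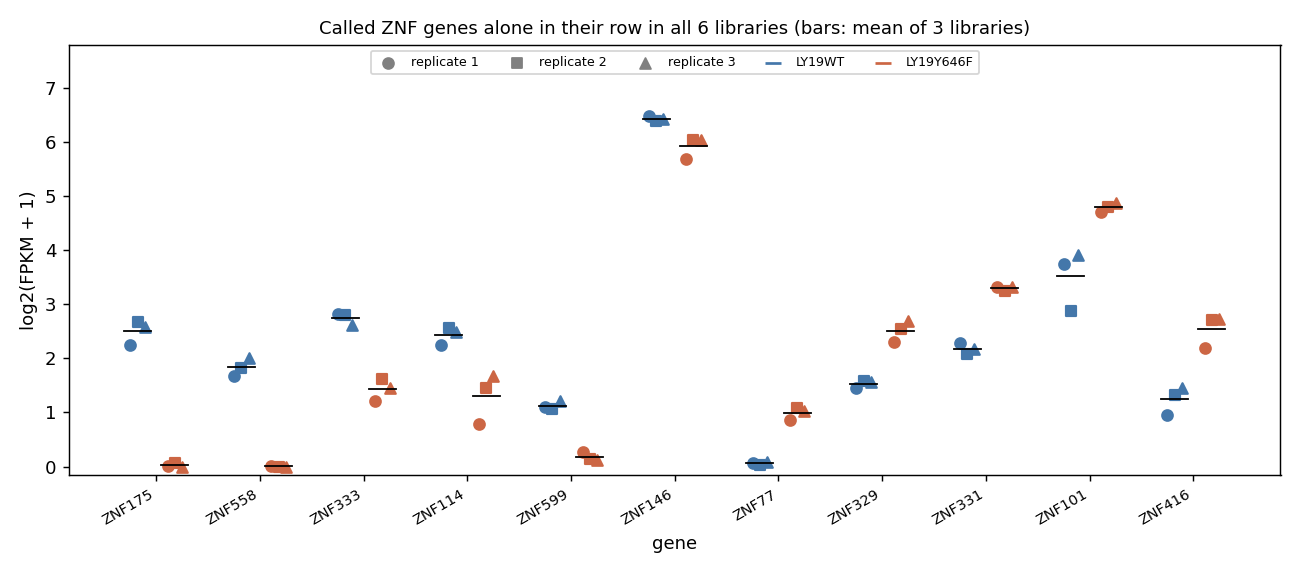
Level of the 11 called genes that were alone in their row in all 6 libraries, as log2(FPKM + 1), for each library (symbols give the replicate, blue LY19WT, orange LY19Y646F, bars the mean of 3 libraries). ZNF175 and ZNF558 sit near 0 in all 3 LY19Y646F libraries, ZNF77 sits near 0 in all 3 LY19WT libraries, and the lines do not overlap for any of the 11 genes.

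Among these 11 genes, ZNF77, ZNF558, ZNF333, ZNF599, ZNF175 and ZNF331 were called under every alternative setting in which they were tested. The 22 genes with a row of their own that were not called included steady genes and unsteady ones. ZNF14 was steady, at 2.78, 3.37 and 3.99 FPKM in LY19WT and at 2.72, 3.46 and 3.87 FPKM in LY19Y646F (difference -0.01, adjusted p = 0.979). ZNF550 was not, at 8.99 and 6.85 FPKM in LY19Y646F replicates 1 and 2 and listed at 0 in replicate 3, beside 4.19 to 5.31 FPKM in LY19WT. In LY19Y646F replicate 3 another named row, at 51.7 FPKM, lay over the place of ZNF550.

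Of the 15 called genes that shared a row in at least 1 library, 11 were higher and 4 lower in LY19Y646F. The largest differences of all came from 1 stretch of neighbours, from ZNF766 to ZNF534. In each LY19Y646F library ZNF480, ZNF610, ZNF880, ZNF528 and ZNF534 were named together in 1 row, at 32.5, 32.1 and 34.5 FPKM. That row also named ZNF766 in replicate 1 and ZNF701, ZNF808 and ZNF578 in replicate 3. In LY19WT the same genes had other rows. ZNF534 had a row of its own in each LY19WT library, at 0.113, 0.141 and 0.112 FPKM, and its fitted difference was 4.92 (adjusted p = 4.49e-05). ZNF610 and ZNF880 were at 0, 0 and 0.885 FPKM in LY19WT, in a row that named both in replicates 2 and 3, and shared a fitted difference of 4.78 (adjusted p = 0.000352). In LY19WT replicate 1 another named row, at 216 FPKM, lay over the place of both genes. The authors' deposited table gave ZNF534 0.0591 FPKM in LY19WT and 0.271 FPKM in LY19Y646F, a far smaller difference of 0.26 on the log2(FPKM + 1) scale. The level of the shared row is not a level of ZNF534, and how far the genes of the row differ singly was not tested.

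The other genes of this stretch had rows that changed from library to library. ZNF480 was at 17.5 and 19.4 FPKM in LY19WT replicates 2 and 3, where it had its own row, and at 88.0 FPKM in replicate 1, where the row also named ZNF766. ZNF766 was at 11.6 and 12.5 FPKM in LY19WT replicates 2 and 3 and at 37.7 and 40.9 FPKM in LY19Y646F replicates 2 and 3, in its own row in those 4 libraries. It was not called. ZNF528 was at 0.0265 and 0.321 FPKM in LY19WT replicates 2 and 3 but at 216 FPKM in replicate 1, in a row that also named PPP2R1A, a subunit of protein phosphatase 2A.

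**Figure D2:**
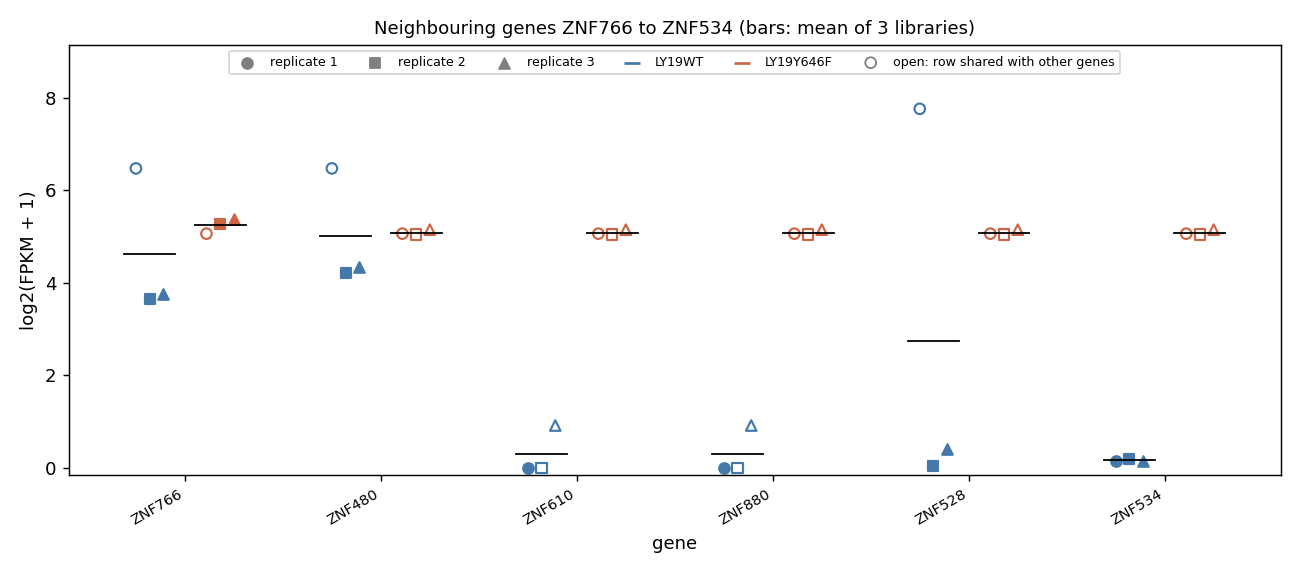
Level of 6 neighbouring genes as log2(FPKM + 1) in each library (open symbols: the row named other genes too; bars: mean of 3 libraries). In LY19Y646F the points of ZNF480, ZNF610, ZNF880, ZNF528 and ZNF534 are the same shared row in each library, while ZNF534 is near 0 in all 3 LY19WT libraries, in a row of its own.

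ZNF8 and ZNF544 shared a row with ERVK3-1 and 2 other names in all 6 libraries, so the row named the same genes throughout. It was at 71.0, 62.2 and 49.5 FPKM in LY19WT and at 121, 123 and 124 FPKM in LY19Y646F. The row as a whole rose by 1.02 (SE 0.15, adjusted p = 0.00694). The authors' deposited table gave ZNF544 alone 0.200 and 1.66 FPKM, the same direction at a much lower level. ZNF404 also shared its row throughout, with RP11-15A1.3, and was at 0.0748, 0.0453 and 0.118 FPKM in LY19WT and at 2.25, 1.67 and 1.97 FPKM in LY19Y646F (difference 1.45, adjusted p = 0.00208). ZNF583, named with the antisense gene ZNF582-AS1 in every library and also with ZNF542 in 1, was at 1.02, 0.994 and 1.59 FPKM in LY19WT. It was at 3.99, 5.10 and 5.05 FPKM in LY19Y646F, a rise of 1.38 (SE 0.19, adjusted p = 0.00586).

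ZNF527 and ZNF383 are neighbours that had their own rows in 5 libraries and shared 1 in LY19Y646F replicate 1. ZNF527 was at 1.75, 1.82 and 2.33 FPKM in LY19WT and at 8.88, 8.69 and 8.62 FPKM in LY19Y646F, and rose by 1.72 (SE 0.15, adjusted p = 0.00123). The value of the shared row was thus close to the values of its own rows. ZNF383 was at 4.26, 4.68 and 4.59 FPKM in LY19WT and at 8.88, 12.6 and 8.58 FPKM in LY19Y646F (difference 0.98, adjusted p = 0.0178), a call lost without LY19WT replicate 1, 2 or 3 (adjusted p up to 0.0627 over all alternatives). ZNF180 was at 2.84, 2.84 and 3.15 FPKM in LY19WT and at 5.32, 6.38 and 6.94 FPKM in LY19Y646F (difference 0.87, adjusted p = 0.0154), lost without LY19WT replicate 2 or 3 or LY19Y646F replicate 2 or 3 (adjusted p up to 0.0650). ZNF350, also known as ZBRK1, a repressor that works with BRCA1, was at 0.370, 0.294 and 0.463 FPKM in LY19WT and at 1.29, 2.81 and 3.02 FPKM in LY19Y646F. It had its own row in all libraries but LY19Y646F replicate 3. Its difference was 1.25 (SE 0.27, adjusted p = 0.0241), and the call was lost without LY19WT replicate 1, 2 or 3 or LY19Y646F replicate 2 or 3 (adjusted p = 0.0670, 0.0837, 0.0677, 0.0791 and 0.0685). In the authors' deposited table ZNF350 was at 0.451 FPKM in LY19WT and 4.80 FPKM in LY19Y646F.

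The 4 lower genes with a shared row were ZNF788, ZNF730, ZNF358 and ZNF442. ZNF788 was at 3.68, 13.6 and 7.49 FPKM in LY19WT, the second in a row with ZNF844, and listed at 0 in all 3 LY19Y646F libraries (adjusted p = 0.00639), where another named row above 0.5 FPKM covered its place. The authors' deposited table gave it 5.64 and 0.138 FPKM. ZNF442 was at 0.984, 0.980 and 1.02 FPKM in LY19WT and at 0, 0.0611 and 0.0581 FPKM in LY19Y646F, a difference of -0.94 (adjusted p = 0.00526). The 0 was that of a row naming 14 genes in LY19Y646F replicate 1, and ZNF442 had its own row in all other libraries. ZNF730 shared its row with CTD-2291D10.4 throughout, but the row spanned 224 to 226 kb in the LY19WT libraries and 73.1 to 73.6 kb in those of LY19Y646F, so unlike rows were compared. It was at 12.7, 9.09 and 16.4 FPKM in LY19WT and at 2.71, 3.72 and 2.17 FPKM in LY19Y646F. The fitted difference was -1.81 (SE 0.28, adjusted p = 0.00799), whereas the authors' deposited table gave ZNF730 0.446 and 0.259 FPKM, a far lower level and a smaller difference. ZNF358, in a row with C19orf45, was at 1.10, 1.00 and 1.46 FPKM in LY19WT and at 0.216, 0.126 and 0 FPKM in LY19Y646F (difference -0.97, adjusted p = 0.0114).

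Set beside the authors' deposited table, which holds 87 of the 243 genes, the genes with a row of their own lay closer to it than the rest. Of 28 tested genes alone in their row, 22 had the same direction in both sources, with a Pearson correlation of 0.919 across genes and a median gap of 0.22 on the log2(FPKM + 1) scale. Of 47 tested genes with a shared row, 31 had the same direction, with a correlation of 0.348 and a median gap of 0.56. Both sources come from the same reads and genes are not independent replicates, so these values are a description. That table holds 17 of the called genes, each with the direction of the library tables, and 2 of them, ZNF534 and ZNF730, less than 50% of the size.

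**Figure D3:**
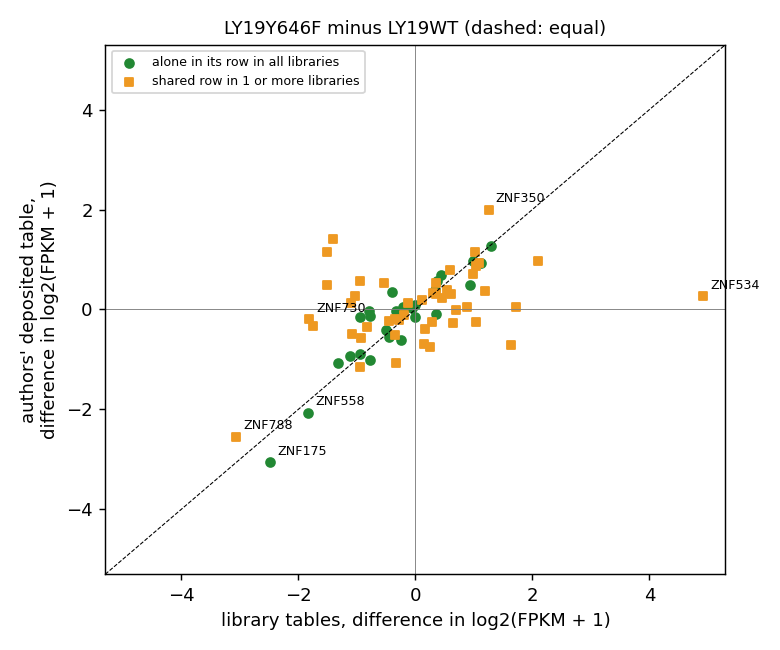
Difference in log2(FPKM + 1), LY19Y646F minus LY19WT, from the library tables (x axis) and from the authors' deposited table (y axis), for tested genes in both; the dashed line marks equal values. Green points, alone in their row, follow the line more closely (median gap 0.22) than orange points, which shared a row (median gap 0.56), and ZNF534 lies far off it.

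Along the chromosome the called genes were spread over many clusters. Of the 17 clusters, 8 had at least 5 tested genes, with 182 tested of 227 in all, and their median difference was above 0 in 4. The cluster nearest the end of the long arm, from ZNF628 to ZNF446, was the largest with 58 genes, 43 of them tested. It had 5 called genes, all higher (ZNF583, ZNF416, ZNF329, ZNF544 and ZNF8), and a median of 0.75. ZNF544 and ZNF8 are 1 row counted for each gene, and 40 of the 58 genes shared a row in at least 1 library. Only 8 of the tested genes were alone in their row, 2 of them called. Inside the span of this cluster 13 of the 54 other tested genes were called (24.1%), 12 of them higher. Over all tested symbols 26.1% were called, 13.2% higher and 12.9% lower. The next cluster towards the centromere, from ZNF175 to ZNF331, had 39 genes, 37 tested, with 5 higher and 1 lower and a median of -0.89. Its direction by median and by calls thus differed, and 36 of its 39 genes shared a row in at least 1 library.

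The clusters of the short arm had 8 calls among 69 tested genes (11.6%) and those of the long arm 18 among 125 (14.4%), and no test was made between the arms. On the short arm, in the cluster from ZNF653 to ZNF791, 24 of 26 genes were tested and 2 were lower, ZNF788 and ZNF442, and none was alone in its row throughout. ZNF558 was the only call among 13 tested genes from ZNF414 to ZNF846. Between ZNF101 and ZNF726, where 26 of 36 genes were tested, ZNF101 was higher and ZNF730 lower. On the long arm, the cluster from ZNF565 to ZNF573 had ZNF527 and ZNF383 higher and ZNF146 lower among 17 tested, and that from ZNF575 to ZNF296 had ZNF404 and ZNF180 higher among 17. ZNF599 was the only call among 5 tested genes from ZNF807 to ZNF792. Neighbouring tested genes with distinct values moved in the same direction in 72 of 134 pairs.

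**Figure D4:**
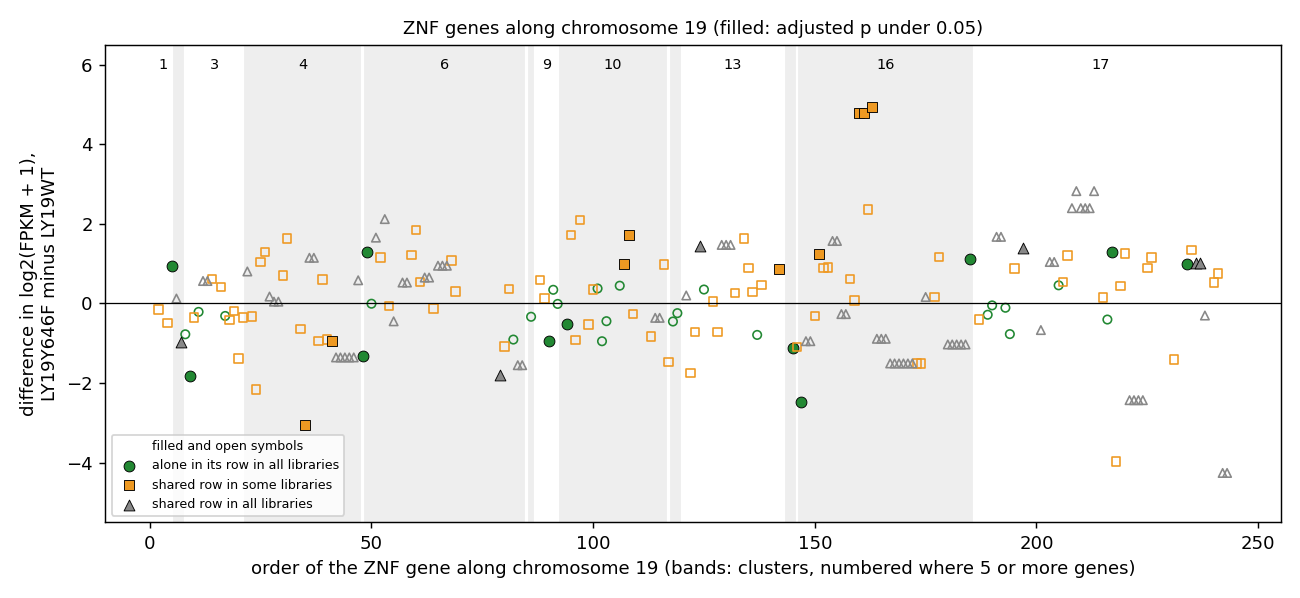
Difference in log2(FPKM + 1), LY19Y646F minus LY19WT, for the 194 tested genes in their order along chromosome 19 (green circles alone in their row, orange squares in a shared row in some libraries, grey triangles in all; filled: adjusted p under 0.05; grey and white bands: clusters). Runs of triangles at 1 height are genes of 1 shared row, and the 3 filled squares near 4.8 are ZNF610, ZNF880 and ZNF534.

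The highest means belonged to shared rows. ZNF324 and ZNF446 were at 824 FPKM in LY19WT replicate 1, in a row that also named TRIM28, and at 2.82 and 2.94 FPKM in replicates 2 and 3. In LY19Y646F they were at 0, 0 and 0.761 FPKM. They were not called (adjusted p = 0.248), and without LY19WT replicate 1 they were lower in LY19Y646F by -1.68 (adjusted p = 0.0339). ZNF254 and ZNF726 were at 363, 13.7 and 16.0 FPKM in LY19WT and at 366, 8.81 and 0 FPKM in LY19Y646F, the high values being rows of replicate 1 that also named RPSAP58. ZNF823 was at 407 FPKM in LY19WT replicate 1, where its row named HNRNPA1P10, and between 2.48 and 4.27 FPKM in the other 5 libraries. Summed over distinct rows, the genes of the LY19WT libraries reached 2843, 1030 and 981 FPKM, and those of the LY19Y646F libraries 1458, 1019 and 1137 FPKM. Without rows over 100 FPKM the sums were 1032, 1030 and 981 FPKM and 970, 896 and 1013 FPKM. That cut removed the shared row of ZNF8 and ZNF544, called higher, from LY19Y646F alone, where it held 121, 123 and 124 FPKM. The LY19WT sums kept this row (71.0, 62.2 and 49.5 FPKM). The trimmed sums therefore do not cover the same rows, and their closeness is no measure of equal levels.

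Values of 0 were common. Of the 194 tested genes, 100 were listed at 0 in at least 1 library, and 93 of those shared a row somewhere. Tested genes with a row of their own in at least 1 library had 107 zeros. Of these zeros 62 had another row above 0.5 FPKM over the same place and 45 had none. Some of them were values of shared rows, such as that of ZNF442 in LY19Y646F replicate 1. ZNF28, ZNF320, ZNF468, ZNF816, ZNF83, ZNF888, ZNF600 and ZNF611 were named by 1 row at 22.1 FPKM in LY19WT replicate 2 and were listed at 0 in the other 5 libraries. SETDB1, a gene that most cells use, was listed at 0 in LY19WT replicate 1, so a 0 in these tables need not mean that a gene was silent.

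Replicate 1 stood apart in both lines. It was at least 2-fold above replicates 2 and 3 in both lines for 5.76% of all tested symbols (995 of 17276), against 0.550% for replicate 2 and 0.515% for replicate 3. Among the tested chromosome 19 ZNF genes this held for 7 of 194 (3.61%), namely ZNF414, ZNF653, ZNF254, ZNF726, ZNF574, ZNF865 and ZNF787, and among the other genes of chromosome 19 for 18.5%. Of the tested ZNF genes alone in their row it held for 4 of 33 (12.1%). ZNF414 was at 10.2, 1.12 and 1.84 FPKM in LY19WT and at 4.25, 0.575 and 0.618 FPKM in LY19Y646F. ZNF787 was at 5.52, 2.41 and 2.39 FPKM in LY19WT and at 6.99, 1.98 and 1.51 FPKM in LY19Y646F. Neither was called (adjusted p = 0.534 and 0.906). Without replicate 1 in either line 37 of 191 tested ZNF genes were called (19.4%), 26 higher and 11 lower, beside a rise over all symbols to 35.2% (5915 of 16821). ZNF101 and ZNF730 lost their calls there (adjusted p = 0.104 and 0.0629), as did ZNF383. The part of replicate 1 in the other results was not tested.

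**Figure D5:**
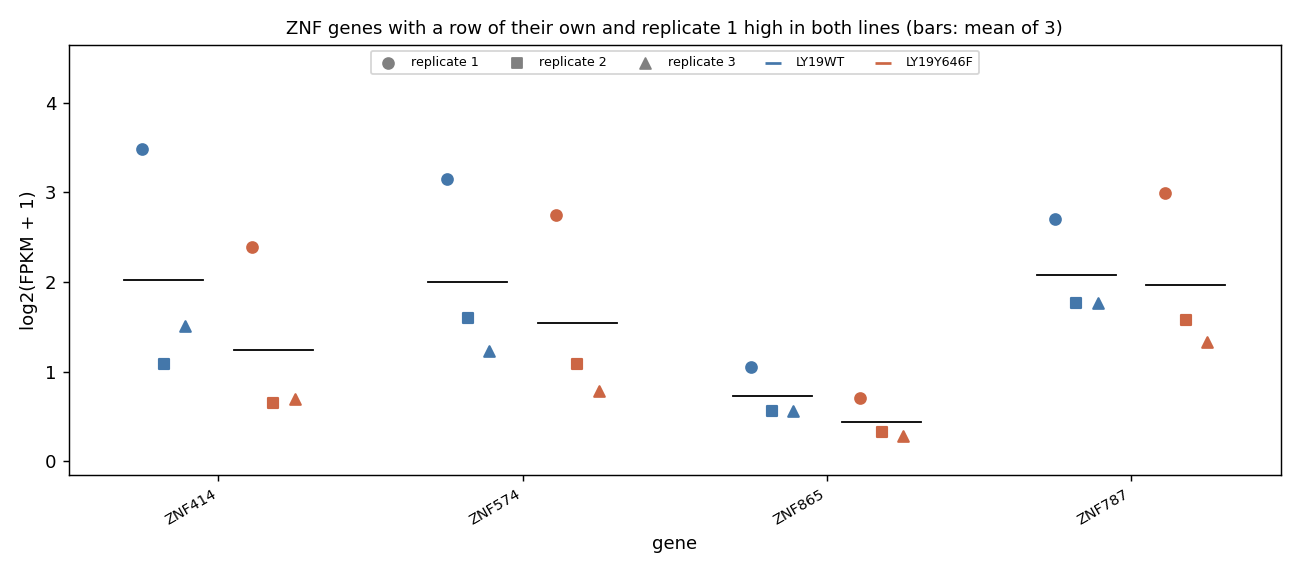
Level of the 4 genes with a row of their own whose replicate 1 (circles) was at least 2-fold above replicates 2 and 3 in both lines, as log2(FPKM + 1) (blue LY19WT, orange LY19Y646F, bars the mean of 3 libraries). In ZNF414, ZNF574, ZNF865 and ZNF787 the circle is the highest point of each line.

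Of 12 genes on a list of proteins known to bind retroelements, 11 were tested and 1 was called (9.09%, against 26.1% of all tested symbols and 22.3% of those with a shared row). That gene was ZNF146, lower, whose call was lost without several single libraries (above), and its own difference of -0.51 is also the median of the list. The other 10 tested genes shared a row in at least 1 library. ZNF91, known to repress SVA elements, was at 12.9, 24.7 and 9.33 FPKM in LY19WT and at 8.20, 5.37 and 5.54 FPKM in LY19Y646F. The lines did not overlap, and the difference missed the threshold (-1.09, adjusted p = 0.109). Its row also named ZNF724P in LY19WT replicates 1 and 2 and in LY19Y646F replicate 1, so unlike rows were compared. In its own row it was at 9.33 FPKM in LY19WT replicate 3 and at 5.37 and 5.54 FPKM in LY19Y646F replicates 2 and 3. The authors' deposited table gave ZNF91 0.409 FPKM in LY19WT and 0 FPKM in LY19Y646F, a far lower level. ZNF93, known to repress LINE-1 elements, was at 8.84, 1.35 and 2.26 FPKM in LY19WT and at 10.1, 16.2 and 31.2 FPKM in LY19Y646F (difference 2.12, adjusted p = 0.0842). Without LY19WT replicate 1 it passed (2.73, adjusted p = 0.0335). The row of ZNF93 also named ZNF253 in every LY19Y646F library, but among the LY19WT libraries only in replicate 1. Unlike rows were therefore compared, and a difference of ZNF93 alone was not tested. ZNF274, which recruits SETDB1 to zinc finger genes themselves, was at 7.07, 7.04 and 1.46 FPKM in LY19WT and at 11.96, 13.1 and 13.2 FPKM in LY19Y646F (difference 1.34, adjusted p = 0.131). Without LY19WT replicate 3 it passed as well (0.77, adjusted p = 0.0372). ZNF274 had its own row in every LY19WT library, but in every LY19Y646F library the row also named RPS15AP36, so unlike rows were compared.

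ZNF675, a zinc finger protein known to bind TRAF6, was at 9.09, 11.8 and 12.7 FPKM in LY19WT and at 14.2, 15.0 and 14.4 FPKM in LY19Y646F, without a call (difference 0.36, adjusted p = 0.177). ZNF587, which binds HERV-K elements, was at 62.8, 72.4 and 53.2 FPKM in LY19WT and at 53.3, 0 and 28.7 FPKM in LY19Y646F. Its row held 7 to 9 names in every library and that of ZNF765 held 9 to 11, so neither gene had a value of its own. ZNF765 was at 27.0, 31.5 and 33.8 FPKM in LY19WT and at 55.0, 65.1 and 0 FPKM in LY19Y646F, so that 1 library set the sign of its difference of -1.03 (adjusted p = 0.698). Without LY19Y646F replicate 3 that difference was 0.94 (adjusted p = 0.0259). ZNF649 shared a row with ZNF577, at 1.99, 2.31 and 1.96 FPKM in LY19WT and at 0, 0.00549 and 3.02 FPKM in LY19Y646F. The third LY19Y646F library was the odd one, in a row that also named ZNF350, and without it both were lower by -1.62 (adjusted p = 0.00661). ZNF808, ZNF429 and ZNF431 were not called, with adjusted p of 0.764, 0.642 and 0.471.

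Of 14 genes on a list known as methylated in tumours, 7 were tested, 2 were listed at 0 in every library, and 1 was called, ZNF331, higher (14.3%, against 26.1% of all tested symbols). The median difference of the 7, 0.89, is the value of ZNF154, which rests on 1 library. ZNF132 was at 0.383, 0.436 and 0.450 FPKM in LY19WT and at 0.766, 2.03 and 1.55 FPKM in LY19Y646F. The lines did not overlap, the difference of 0.75 missed the threshold (adjusted p = 0.0830), and without LY19Y646F replicate 1 it passed (0.96, adjusted p = 0.0150). ZNF671 was at 0, 0 and 2.0004 FPKM in LY19WT and at 3.94, 5.74 and 0 FPKM in LY19Y646F. ZNF154 was at 0.159, 0.199 and 0 FPKM in LY19WT and at 0.317, 5.74 and 0 FPKM in LY19Y646F. Both overlapped between the lines and were not called (adjusted p = 0.419 and 0.460). Both also shared a row in some libraries, and their value in LY19Y646F replicate 2 was the same. Where ZNF671 or ZNF154 was listed at 0, another named row at 28.7 to 72.4 FPKM lay over its place. ZNF542 was above 0 only in LY19Y646F replicate 2, at 5.10 FPKM, in the row it shared with ZNF583, and ZNF304 was at 2.51, 5.17 and 51.7 FPKM in LY19Y646F beside 3.01 to 3.89 FPKM in LY19WT, the highest value being that of a row of 8 ZNF genes.

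Of 24 genes of the machinery through which KRAB proteins act, 23 were tested, 3 were higher and 4 lower in LY19Y646F, and the median difference was -0.26. The share called, 30.4%, is near the 26.1% of all tested symbols. TRIM28, the co-repressor that KRAB domains bind, was at 824, 511 and 485 FPKM in LY19WT and at 691, 454 and 381 FPKM in LY19Y646F, and was not called (adjusted p = 0.590). SETDB1 was at 0, 33.5 and 26.1 FPKM in LY19WT and at 13.2, 17.3 and 20.5 FPKM in LY19Y646F (adjusted p = 0.700). DNMT3A, a de novo DNA methyltransferase, was at 9.30, 7.90 and 8.52 FPKM in LY19WT and at 0.720, 0.641 and 0.850 FPKM in LY19Y646F, a fall of -2.46 (SE 0.15, adjusted p = 0.000348). DNMT3B, the other de novo enzyme, rose from 2.23, 1.79 and 2.35 FPKM to 7.37, 7.53 and 5.66 FPKM (difference 1.32, adjusted p = 0.00561). Of the histone deacetylases HDAC1 rose by 1.21 (adjusted p = 0.00356) and HDAC2 fell by 1.49 (adjusted p = 0.00136). ATF7IP2, a partner of SETDB1, rose by 0.98 (adjusted p = 0.00658). MPHOSPH8, a subunit of the HUSH silencing complex, and CBX5, a heterochromatin protein, each shared a row with other names in all 6 libraries. Their rows fell by 0.82 (adjusted p = 0.0107) and 0.66 (adjusted p = 0.0275), and the genes alone were not tested. SETDB1 shared a row in 4 libraries and HDAC1 in 1. The 824 FPKM of TRIM28 was that of a row that also named ZNF324 and ZNF446. DNMT3A, DNMT3B, HDAC2 and ATF7IP2 were alone in their rows throughout.

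Among 38 other zinc finger genes of chromosome 19, whose symbols do not have the form of ZNF plus digits, 23 were tested, 4 were higher and 1 was lower (21.7% called, against 26.1% of all tested symbols).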

How the data were processed

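Polyadenylated RNA of 3 LY19WT and 3 LY19Y646F libraries was prepared with a stranded kit and read from 1 end, per the labels' protocols. The submitters' processing notes name STAR 2.5.3a, Cuffdiff 2.2.1, Cufflinks 2.2.1 and the build hg19. For each library the authors deposited FPKM per assembled locus, per the file headers. The authors' deposited Cuffdiff table gives mean FPKM per line, and its log2 values were recomputed from these means as log2(FPKM + 1). Depth is unknown, so precision rests on 3 libraries per line.

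Names were split at commas and rows summed per symbol on primary chromosomes. Symbols lacking a row in every library (35) or with a failed row (127) were left out of the fit. limma 3.58.1 in R 4.3.3 (lmFit, eBayes with trend, two-sided, with LY19WT subtracted from LY19Y646F and Benjamini-Hochberg adjustment over all 17276 tested symbols) was run on log2(FPKM + 1), a scale that understates changes of low genes. The fit was also run on simulated data with independent noise for each symbol. Those data held no shared rows, so the run does not bear on the values of shared rows. Alternatives changed the pseudocount, the filter, the scaling, the library weights, the treatment of shared rows, the replicate block and the libraries used. For single genes the exact permutation test over 3 against 3 libraries cannot go below p = 0.10. Joins and plots used matplotlib 3.10.9, scipy 1.17.1, numpy 2.4.6 and pandas 2.3.3 in Python 3.11.15.

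Members and lists were chosen with earlier results of these data known. The named genes are the 10 largest rises and up to 10 of the largest falls among called genes. These had no overlap between lines and a mean of 1 FPKM or more in the higher one, and fewer than 10 falls met this. Also named are the 5 highest means and, in clusters with at least 5 tested genes, the called gene of smallest adjusted p per direction. The tested members of both member lists and up to 6 called co-repressor genes with TRIM28 and SETDB1 were named as well. The other called genes and CBX5, the neighbours of ZNF534, the genes high in replicate 1 and the examples of steady genes and of zeros were named after their values were seen.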

Additional observations from a re-analysis of the deposited data

How the results depend on the processing

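No called gene changed sign under any of the alternatives, and 16 of the 26 kept their call in every alternative that tested them. Array weights in limma gave 7244 called symbols in all, 49 called chromosome 19 ZNF genes, 13 co-repressor genes, 3 retroelement genes and 2 of the methylated list. Restricting the fit to symbols alone in their row left 11 called ZNF genes with a median of -0.29 and 0 clusters with a median above 0, with 33 ZNF genes tested. Restricting it to symbols with the same row names in every library left 16 called with a median of -0.22. Using only symbols above 0 in all libraries gave a median of 0.37, 7 clusters with a median above 0 and 2 calls in the methylated list. The median was 0.03 without a filter on low values, which also gave 2 calls in the methylated list, and 0.16 with identical value sets counted once. Leaving out 1 library at a time gave 3285 to 5148 called symbols, 19 to 32 called ZNF genes, 5 to 9 of those alone in their row, medians of 0.023 to 0.10, 4 to 6 clusters with a median above 0, 6 to 8 co-repressor genes, 0 to 2 retroelement genes and 1 to 2 of the methylated list. Leaving out replicate 1 of both lines gave 5915 called symbols, 37 called ZNF genes, a median of 0.16, 5 clusters, 11 co-repressor genes, 2 retroelement genes and 2 of the methylated list. With single libraries left out, ZNF765 ranged from -2.08 without LY19Y646F replicate 2 to 0.94, a reversal, without LY19Y646F replicate 3, and with a pseudocount of 0.1 it was -2.11. The cause of these shifts was not tested. The last setting, the one with the same row names and the one with symbols above 0 were chosen after seeing the data.

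The lines share replicate numbers, but no label ties same-numbered libraries to a shared source, and their deviations from the line means correlated at 0.167, 0.033 and 0.108, not above 0.1 in every pair. The numbers were therefore not taken as a pairing, although replicates 1 of both lines correlated best with each other. LY19WT replicate 2 correlated slightly better with LY19Y646F replicate 3 (0.039) than with its own number. With the replicate number as a block 4352 symbols and 24 ZNF genes were called, with 9 co-repressor genes, 0 retroelement genes and 1 of the methylated list. ZNF358 (adjusted p = 0.0565), ZNF101 (0.0620), ZNF350 (0.0560) and ZNF146 (0.0843) were not called under the block.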
